A study of Mus musculus with 2 samples.

Results

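The 7 genes described here, Mpo, Elane, Prtn3, Ctsg, Cst7, Nkg7 and Plac8, were taken by symbol from the 23235 rows of the deposited expression table, and all 7 were found. They are known from azurophil (primary) granules, or from the promyelocytes that make them, the neutrophil precursors in which these granules form. Only Mpo, Elane, Prtn3 and Ctsg encode enzymes. Cst7 encodes a protease inhibitor, Nkg7 a granule membrane protein and Plac8 a small cysteine-rich protein. The set is called azurophil granule genes below for short, without a claim that Cst7, Nkg7 and Plac8 encode cargo of that granule.

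RNA was sequenced from lineage-depleted bone marrow progenitors of C57B6 mice that had been given a MIGR1 retrovirus for HA-Hoxa9-ER and another for Flag-Meis1 and transformed in IL3 and 100 nM 4-hydroxytamoxifen (4OHT). Hoxa9-ER is the leukaemia-linked homeobox factor Hoxa9 fused to the ligand-binding domain of the estrogen receptor, and Meis1 is its partner. After 3 washes, the EtOH group was grown for 72 h in ethanol, the solvent, which leads to loss of nuclear Hoxa9-ER. The 4OHT group was grown for the same 72 h in 100 nM 4OHT and kept the active fusion. Both groups carried both retroviruses and grew in IL3, and the viral vector drives Hoxa9-ER and Meis1, so neither group is an untransformed marrow cell. Which genes change when nuclear Hoxa9 is lost is the question of the study.

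Each group was 1 sample made from 2 biological replicates. The table holds a single FPKM value for each gene and group. By definition FPKM is fragments scaled to transcript length and to the number mapped, but the library scaling used is not stated. No replicate values were used here, so no value below has a replicate error and no test was run across samples. All q-values come from the authors' deposited table, and "rose" and "fell" are used for genes with a q-value of at most 0.05 there. Changes are log2((FPKM EtOH + 1)/(FPKM 4OHT + 1)), so a positive value is higher in EtOH. Hoxa9 RNA, viral copies included, was 892 FPKM in EtOH and 476 FPKM in 4OHT. RNA does not show where the fusion protein lies in the cell, so this value does not check the withdrawal. The FPKM values summed to 591496 in EtOH and 544802 in 4OHT.

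Azurophil granules are the first granules to form in a developing neutrophil, and their cargo is transcribed chiefly in promyelocytes, before the genes of secondary granules are switched on. Myeloperoxidase turns hydrogen peroxide and chloride into hypochlorous acid, and neutrophil elastase, proteinase 3 and cathepsin G are serine proteases that cut microbial and host proteins. The proteases are made as inactive precursors, activated by the dipeptidyl peptidase Ctsc and packed on the proteoglycan serglycin. Their promoters are textbook targets of PU.1 (an ETS factor), C/EBP factors and Myb, the promoter of mouse Elane above all.

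The azurophil granule genes did not move together after 4OHT withdrawal. Mpo, Elane, Prtn3 and Nkg7 rose, Ctsg fell, and Cst7 and Plac8 did not pass the threshold. Of the 7 genes 4 were called higher and 1 lower in EtOH, where 12.0% of the 11865 tested rows were called higher and 10.5% lower. Among the 1905 tested rows that reached 50 FPKM in one of the conditions, as all 7 genes did, 30.1% were called in one direction or the other and 17.1% were called higher. Nkg7 reached 50 FPKM through EtOH alone (75.9 FPKM, against 14.2 FPKM in 4OHT), so its direction within these rows was fixed by the filter. With a 2-fold change added, the counts were again 4 higher and 1 lower, where 6.52% of all tested rows passed as higher and 3.54% as lower. Under the authors' second call, which adds a ratio of at least 1.5, they were again 4 and 1, where 9.89% of rows passed as higher and 7.23% as lower. The median log2 change was 1.09 over the 7 genes, against -0.05 over all tested rows.

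**Figure D1:**
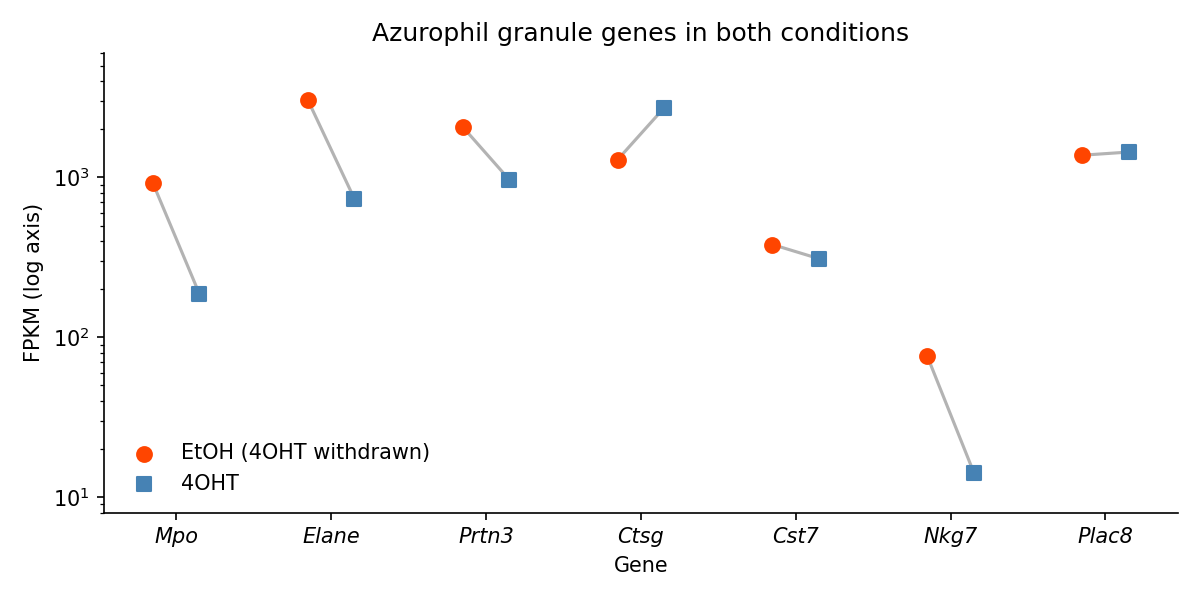
FPKM (log axis) of the 7 azurophil granule genes in EtOH (circles) and 4OHT (squares), 1 value per condition. Mpo, Elane, Prtn3 and Nkg7 lie higher in EtOH, Ctsg lies lower in EtOH (1291 FPKM) than in 4OHT (2722 FPKM), and the values of Cst7 and Plac8 lie close together.

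The promoters of the 4 enzyme genes are shown because these genes encode enzymes of the same granule and did not all move the same way. Each is the 250 bases before the RefSeq start (GRCm38.p6), 5′ to 3′ on the strand of the gene, and capitals mark the ETS motif AGGAAG or its reverse complement CTTCCT. The windows are chr11:87793534-87793783 for Mpo, chr10:79886062-79886311 for Elane, chr10:79879417-79879666 for Prtn3 and chr14:56102575-56102824 for Ctsg.
Mpo: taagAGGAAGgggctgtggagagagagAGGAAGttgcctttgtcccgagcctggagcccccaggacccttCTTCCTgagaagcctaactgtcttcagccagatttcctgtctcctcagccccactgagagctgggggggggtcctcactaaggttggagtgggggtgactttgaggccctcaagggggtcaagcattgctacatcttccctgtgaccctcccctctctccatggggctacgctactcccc
Elane: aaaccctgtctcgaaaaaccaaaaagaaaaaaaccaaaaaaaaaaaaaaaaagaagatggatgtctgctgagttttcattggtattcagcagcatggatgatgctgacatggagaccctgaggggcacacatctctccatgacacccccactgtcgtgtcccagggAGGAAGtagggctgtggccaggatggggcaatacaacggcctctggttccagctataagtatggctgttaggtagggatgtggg
Prtn3: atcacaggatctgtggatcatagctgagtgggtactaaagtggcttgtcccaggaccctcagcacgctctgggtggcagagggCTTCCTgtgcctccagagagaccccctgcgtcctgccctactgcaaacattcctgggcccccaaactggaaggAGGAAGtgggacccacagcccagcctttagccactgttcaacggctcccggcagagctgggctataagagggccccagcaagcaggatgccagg
Ctsg: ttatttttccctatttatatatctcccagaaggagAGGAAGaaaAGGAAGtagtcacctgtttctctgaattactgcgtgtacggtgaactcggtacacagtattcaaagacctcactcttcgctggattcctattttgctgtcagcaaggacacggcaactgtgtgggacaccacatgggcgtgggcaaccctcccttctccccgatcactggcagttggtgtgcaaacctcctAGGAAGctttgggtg

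The ETS motif was found in the promoters of 6 of the 7 genes, with Plac8 as the exception, and in 29.5% of all 32851 promoter windows. Ctsg had 3 matches and Mpo 3, Prtn3 had 2, and Elane, Cst7 and Nkg7 had 1 each. In Elane the match began 84 bases before the start and in Prtn3 the nearer one 94 bases before it. The MYB motif AACNG was present in all 7 genes, but 74.2% of all windows held it. The RUNX motif TGTGGT was found for Ctsg, Cst7, Nkg7 and Plac8, and in 14.0% of all windows. The GFI1 core AATC was found for 5 genes, all but Elane and Prtn3, and in 69.0% of windows. The C/EBP motif TTNNGNAA was found only for Cst7 and Plac8, and in 36.8% of windows. Both strands were searched for each motif, and Plac8 was searched in the windows of 2 starts. These matches describe sequence and not binding. Sites that depart from the searched letters were not counted, so a missing match, as for C/EBP in Elane, does not show that a site is absent. Of the enzyme genes, Mpo, Elane, Prtn3 and Ctsg all had the ETS and MYB letters, and only Ctsg had the RUNX letters. Whether any of these motifs bears on the changes was not tested.

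**Figure D2:**
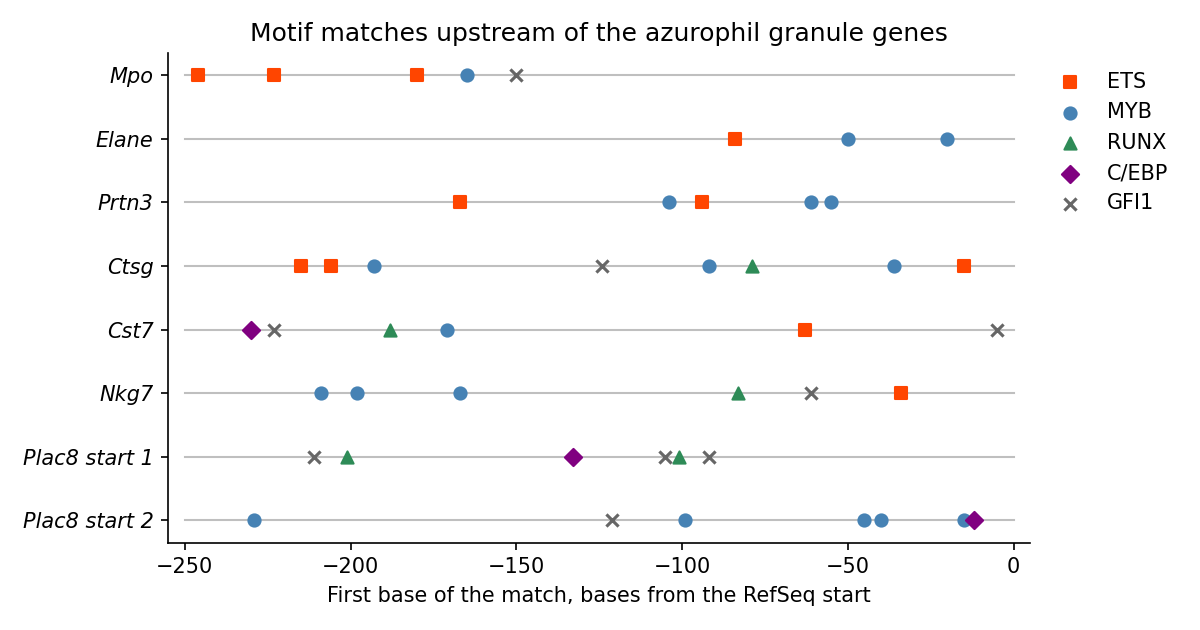
First base of each motif match in the 250 bases before the RefSeq start of the azurophil granule genes, in bases from the start, with 2 starts for Plac8. ETS matches (squares) stand in all windows but those of Plac8, and the match of Elane begins 84 bases before the start.

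Mpo, which encodes myeloperoxidase, had 918 FPKM in EtOH and 186 FPKM in 4OHT. That is 4.92 times as much RNA in EtOH, a log2 change of 2.29, with a q-value listed as 0 in the authors' deposited table. Mpo was the 120th most abundant row in EtOH and the 397th in 4OHT. Its locus is at chromosome 11, 87607286 to 87617914 (mm9), on the forward strand.

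Elane, the gene of neutrophil elastase, had 3047 FPKM in EtOH and 736 FPKM in 4OHT, a ratio of 4.14 and a log2 change of 2.05. Its q-value was also listed as 0 in the authors' deposited table. With this rise Elane was the most abundant of the 7 genes in EtOH and ranked 16th of all rows, against 125th in 4OHT.

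Prtn3, the gene of proteinase 3, had 2068 FPKM in EtOH and 969 FPKM in 4OHT. Its ratio of 2.14 and log2 change of 1.09 came with the q-value 1.05e-07 in the authors' deposited table. Prtn3 and Elane are neighbours on chromosome 10, at 79342412 to 79345917 and 79349057 to 79350961 (mm9), with 3139 bases between them. Both rose, and Elane was 1.47 times as abundant as Prtn3 in EtOH and 0.760 times in 4OHT, so their order turned round.

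Ctsg, which encodes cathepsin G, went the other way, with 1291 FPKM in EtOH and 2722 FPKM in 4OHT. Its log2 change was -1.08, 2.11 times as much RNA in 4OHT, and the authors' deposited table gave it a q-value of 5.03e-09. It was the most abundant of the 7 genes in 4OHT, 14th of all rows there and 91st in EtOH. Among the 117 tested rows that reached 1000 FPKM in EtOH or 4OHT 21 (17.9%) were called higher in EtOH and 2 (1.71%) lower. Those called lower were Ctsg and Mif, a cytokine gene named after its values were seen, at 1092 FPKM in EtOH and 1419 FPKM in 4OHT. Ctsg lies at chromosome 14, 56718718 to 56721411 (mm9), on the reverse strand.

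The opposite changes altered the make-up of the enzyme RNA. Mpo, Elane, Prtn3 and Ctsg summed to 7324 FPKM in EtOH and 4613 FPKM in 4OHT, or 1.24% of all FPKM in EtOH and 0.847% in 4OHT. Ctsg held 17.6% of that enzyme sum in EtOH and 59.0% in 4OHT, while Elane held 41.6% in EtOH and 16.0% in 4OHT. Elane RNA was thus 2.36 times Ctsg RNA in EtOH and 0.270 times in 4OHT. The ratio of Elane to Mpo moved less, at 3.32 in EtOH and 3.95 in 4OHT.

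**Figure D3:**
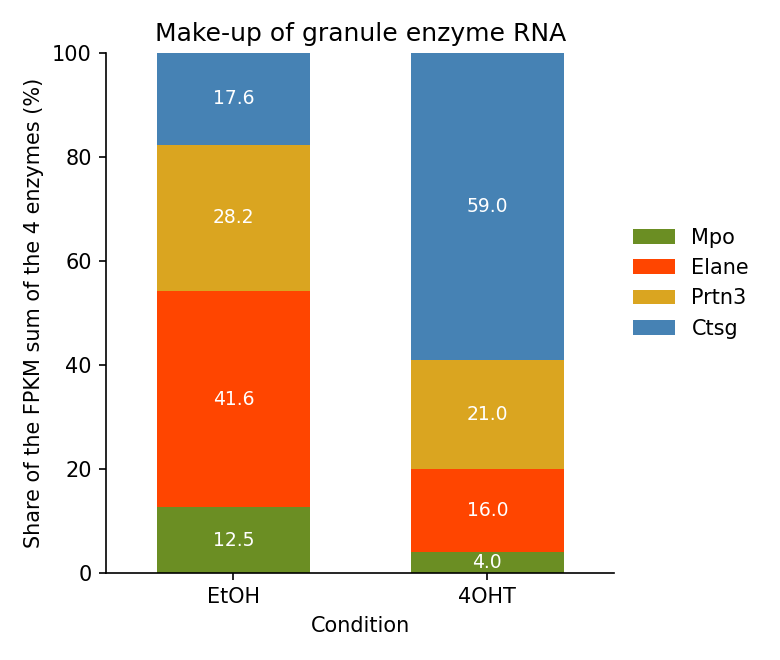
Share of the summed FPKM of Mpo, Elane, Prtn3 and Ctsg held by each gene, in percent, in EtOH (left bar) and 4OHT (right bar), 1 value per condition. Ctsg takes 17.6% in EtOH and 59.0% in 4OHT, and Elane takes 41.6% in EtOH and 16.0% in 4OHT.

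Of the genes that encode no enzyme, Nkg7 alone passed the threshold. It had 75.9 FPKM in EtOH and 14.2 FPKM in 4OHT, with a log2 change of 2.34 and a q-value listed as 0 in the authors' deposited table. Nkg7 was the least abundant of the 7 genes, and its log2 change was close to the 2.29 of Mpo. With a pseudocount of 5 it was 2.07, against 2.27 for Mpo. Nkg7 encodes a membrane protein of cytotoxic granules and lies at chromosome 7, 50692508 to 50693616 (mm9), forward strand.

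Cst7 encodes cystatin F, a cysteine protease inhibitor of the endosome and lysosome that acts on Ctsc, the activator of the granule serine proteases. It had 380 FPKM in EtOH and 310 FPKM in 4OHT, a log2 change of 0.29, and the authors' deposited table gave it the p-value 0.0402 and the q-value 0.134. Its locus is at chromosome 2, 150396151 to 150404680 (mm9), on the forward strand. Plac8, a gene abundant in myeloid and lymphoid cells, had 1376 FPKM in EtOH and 1440 FPKM in 4OHT. Its log2 change was -0.07, or 0.000507 once changes were centred on the median gene, and the authors' deposited table gave the q-value as 0.845. Plac8 lies at chromosome 5, 100982752 to 101001224 (mm9), on the reverse strand. For neither gene does a q-value over the threshold show that the level was equal in both conditions.

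**Figure D4:**
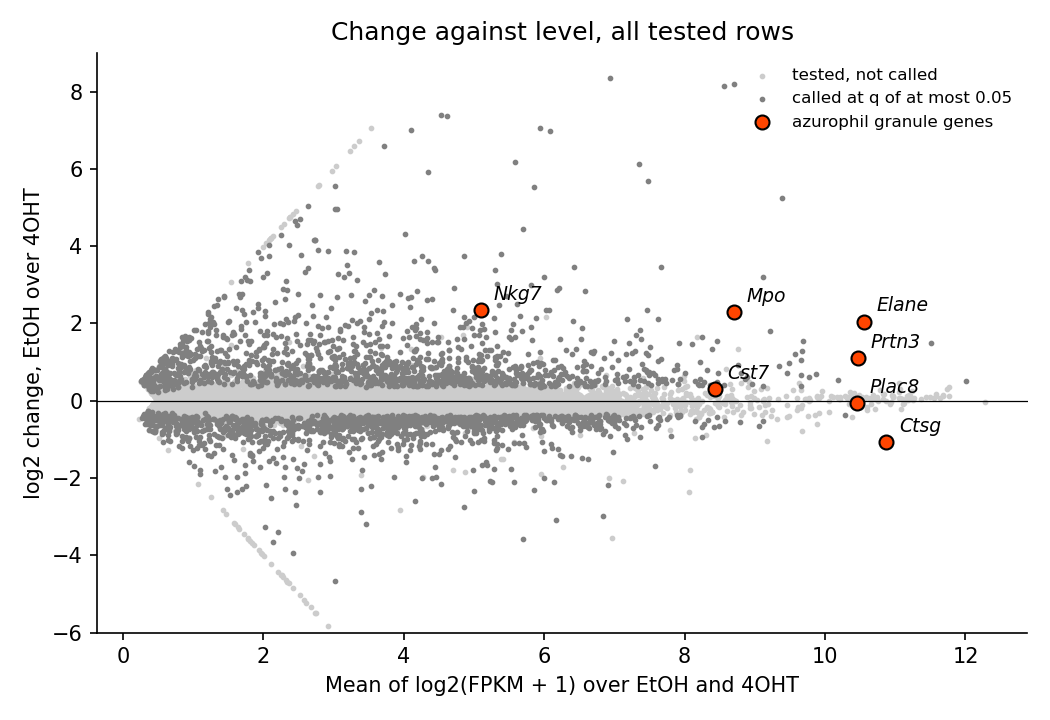
Log2 change, EtOH over 4OHT, against the mean of log2(FPKM + 1) over both conditions for the 11865 tested rows, with rows called at q of at most 0.05 in dark grey and the 7 azurophil granule genes in red. Elane (2.05), Prtn3 (1.09), Plac8 (-0.07) and Ctsg (-1.08) have like mean levels and different changes, and 5 rows lie outside the drawn range.

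The 3 serine protease genes are related, so reads could in principle be shared between them. Their coding sequences, of 795 bases in Elane, 762 in Prtn3 and 783 in Ctsg without the stop, were identical at 67.3% of aligned bases between Elane and Prtn3, 65.7% between Elane and Ctsg and 68.5% between Prtn3 and Ctsg. None of their 50-base words occurred in a transcript of another gene in GENCODE M21. The same held for Cst7, Nkg7 and Plac8, and 0.228% of the words of Mpo were shared. No other row of the table overlapped a locus of the 7 genes.

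Nearby genes did not share the changes in a regular way. The nearest rows on either side of the 7 genes, members left out, were 12, of which 7 were tested. Of these 3 rose and none fell, where 12.0% of all tested rows were called higher and 10.5% lower. Next to Mpo, Bzrap1 rose, with 19.3 FPKM in EtOH and 4.01 FPKM in 4OHT, while the lactoperoxidase gene Lpo, on the other side, stayed under 0.1 FPKM in both. Ptbp1, beside Prtn3, had a log2 change of -0.33 and a q-value of 0.246, and Cfd, beside Elane, stayed under 0.4 FPKM. Beside Cst7, 2310001A20Rik rose with a log2 change of 0.40, and Zfp345 was at 0.104 FPKM in EtOH and 0.111 FPKM in 4OHT. Around Plac8, Cops4 and Coq2 had log2 changes of -0.30 and -0.40 and did not pass. Lim2, beside Nkg7, was listed at 0 in both conditions, and Cldnd2 had 0.950 FPKM in EtOH and 0.242 FPKM in 4OHT.

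Ctsg stands in a cluster of mast cell chymase and granzyme genes on chromosome 14, and it was the only gene of the cluster called lower. Of 14 other genes of that cluster 3 were at 1 FPKM or more in either condition, and all 3 rose. Over all tested rows, 12.0% were called higher and 10.5% lower. The rest of the cluster lay under 1 FPKM and was not tested by the authors, so Ctsg is set against these 3 genes only. The next gene, Mcpt8, a basophil protease 14683 bases away, had 1685 FPKM in EtOH and 183 FPKM in 4OHT, a log2 change of 3.20. Gzmb (granzyme B) had 61.1 FPKM in EtOH and 13.8 FPKM in 4OHT, and Cma1 (mast cell chymase) had 46.3 FPKM in EtOH and 14.6 FPKM in 4OHT. Gzme, on the other side of Ctsg, was listed at 0 in EtOH and had 0.0264 FPKM in 4OHT. Of the other haem peroxidase genes, Epx (eosinophil peroxidase), 59.6 kb from Mpo, rose with 395 FPKM in EtOH and 7.50 FPKM in 4OHT.

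A further list held 10 genes of primary granules or of the progenitors that form them, and not all of them encode granule cargo. For this and the lists that follow, the shares over all tested rows were 12.0% called higher and 10.5% lower. The lists were filtered at 1 FPKM in either condition. A gene can pass through its higher condition alone, and its direction is then fixed by the filter. Of the 10 genes 8 had at least 1 FPKM in either condition, and 7 of these rose, none fell and 1 missed the threshold, for a median log2 change of 1.90. Fcnb, the lectin ficolin B, had 34.8 FPKM in EtOH and 0.0861 FPKM in 4OHT, so it passed the filter through EtOH alone. Igsf6 had 70.1 FPKM in EtOH and 4.78 FPKM in 4OHT. Hdc, the histamine-forming enzyme, had 409 FPKM in EtOH and 93.5 FPKM in 4OHT, and Lyz2 (lysozyme) had 174 FPKM in EtOH and 40.5 FPKM in 4OHT. Hdc is also among the mast cell and basophil markers described below, of which 9 of 10 rose. The words of Lyz2 were shared with other genes, chiefly Lyz1, to 15.4%, so its level is uncertain. Ms4a3, a gene of granulocyte and monocyte progenitors that was named after its values were seen, did not pass, with 821 FPKM in EtOH and 674 FPKM in 4OHT.

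Genes for folding, activating and packing the granule proteins changed in both directions. Of 8 such genes 2 rose and 3 fell, while 3 did not pass, and they had a median log2 change of -0.29. The activator Ctsc fell, with 75.4 FPKM in EtOH and 98.2 FPKM in 4OHT (log2 change -0.38), and so did the chaperone gene Canx, with a log2 change of -0.41, and Ctsl, a cysteine protease that Cst7 can inhibit, with -0.50. Furin, a proprotein convertase, rose to 310 FPKM in EtOH, against 85.8 FPKM in 4OHT. Srgn, the serglycin core protein, had 3907 FPKM in EtOH and 3073 FPKM in 4OHT and did not pass. Calr, a chaperone of newly made myeloperoxidase, had 1150 FPKM in EtOH and 1549 FPKM in 4OHT and did not pass, and neither did the folding enzyme gene Pdia3 (log2 change -0.20).

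Protease inhibitor genes were higher on balance. Of 15 listed genes 9 had at least 1 FPKM, and 7 of these rose, 1 fell and 1 missed the threshold, for a median log2 change of 0.89. Stfa2 and Stfa3 were under 1 FPKM in 4OHT and passed this filter through EtOH alone. With no filter on low values the median was 0.19. Serpinb1a, an inhibitor of elastase, proteinase 3 and cathepsin G, rose to 415 FPKM in EtOH, against 296 FPKM in 4OHT (log2 change 0.48). Slpi, which blocks elastase and cathepsin G, rose with 631 FPKM in EtOH and 482 FPKM in 4OHT. Larger rises were in inhibitors of cysteine proteases, with Cstb at 234 FPKM in EtOH and 98.3 FPKM in 4OHT and Stfa1 at 754 FPKM in EtOH and 5.02 FPKM in 4OHT. Stfa2 and Stfa3 rose as well, with log2 changes of 6.60 and 3.10, and 22.5% of the words of Stfa1 and 15.9% of those of Stfa2 occurred in other genes. Serpina3g fell (log2 change -0.40), with 15.5% of its words shared, and Cst3 (cystatin C) had a log2 change of -0.03 and did not pass.

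Several genes of a list of regulators rose, and not all of those listed encode transcription factors known to act on granule genes. Of 18 regulators 16 had at least 1 FPKM, and 10 of these rose, none fell and 6 missed the threshold, for a median log2 change of 0.75, where 12.0% of all tested rows were called higher and 10.5% lower. Among the more abundant rows of at least 50 FPKM the share called higher was 17.1%. Spi1, the gene of PU.1, listed under its older name Sfpi1, had 167 FPKM in EtOH and 77.5 FPKM in 4OHT. Cebpe, a factor of late granulocyte maturation, had 218 FPKM in EtOH and 93.6 FPKM in 4OHT, and Gfi1, a repressor needed for neutrophil formation, had 118 FPKM in EtOH and 64.0 FPKM in 4OHT. Cebpb (log2 change 0.91), Cebpd (1.25), Egr1 (1.32), Gata2 (0.77) and Gata1 (2.15) rose too. Gata2 is also among the mast cell and basophil markers described below, of which 9 of 10 rose. Cebpa, the factor of commitment to granulocytes, had 116 FPKM in EtOH and 99.7 FPKM in 4OHT and did not pass. Myb, with 127 FPKM in EtOH and 164 FPKM in 4OHT, Myc (log2 change -0.37) and Lmo4 (0.10) did not pass either.

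**Figure D5:**
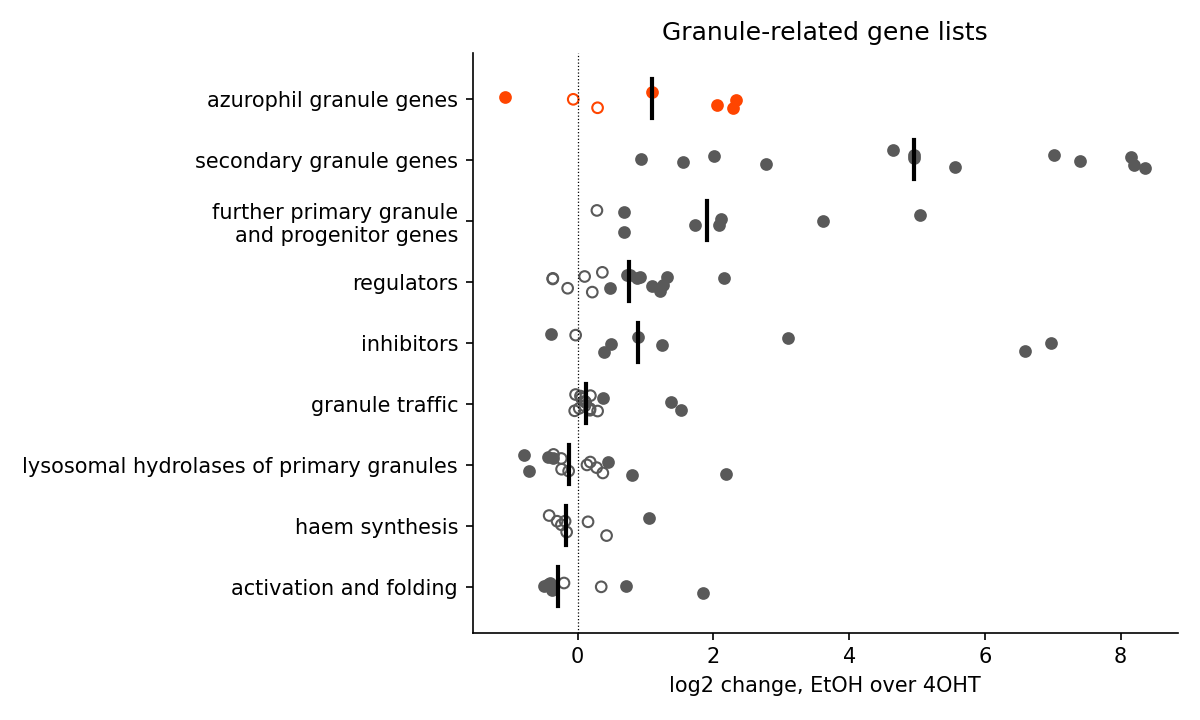
Log2 change, EtOH over 4OHT, of each gene of at least 1 FPKM in either condition, by list, with the 7 azurophil granule genes on top, filled points for genes called at q of at most 0.05, open points for the rest and a bar at the list median. The azurophil granule genes run from -1.08 to 2.34 with a median of 1.09, and the secondary granule genes have a median of 4.96.

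Genes of the later neutrophil programme had a larger median change than the azurophil granule genes. Of 14 secondary granule and late neutrophil genes 13 had at least 1 FPKM and all 13 rose, with a median log2 change of 4.96. Several of the 13 were under 1 FPKM in 4OHT and passed the filter through EtOH alone, which fixed their direction. With no filter on low values the median was 4.96 as well. The largest changes of this list were those of S100a8 and S100a9, the calprotectin subunits, of the granule protein gene Ngp and of the chitinase-like gene Chi3l3, between 7.40 and 8.37. Chi3l3 has close paralogs and was not found under this symbol in the transcripts used to count shared words, so its level is uncertain. These genes summed to 16712 FPKM in EtOH and 143 FPKM in 4OHT, and the 7 azurophil granule genes to 9156 FPKM in EtOH and 6378 FPKM in 4OHT. Lysosomal hydrolases, which primary granules also hold, were mixed, with 3 risen, 4 fallen and 8 not passed of 15 and a median log2 change of -0.13. Arsb (log2 change 2.19) rose and Gusb (-0.79) and Gaa (-0.72) fell. Of 15 granule traffic genes 3 rose, Lyst (1.52), Stx11 (1.37) and Stxbp2 (0.37), and 12 did not pass, which is near the 22.5% of all tested rows called in one direction or the other. A listed traffic gene outside this count, Vamp7, was listed at 0 in both conditions. Of 8 haem synthesis genes only Alas1, which encodes the rate-limiting enzyme, rose, which is near the 12.0% of all tested rows called higher. Alas1 had 189 FPKM in EtOH and 91.0 FPKM in 4OHT.

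Some markers of other cell types also changed, and not all in the same direction. In bulk RNA, fewer cells of a type and less RNA per cell cannot be told apart. Of 10 promyelocyte markers, 4 of which are azurophil granule genes themselves, 7 rose, 1 fell and 2 did not pass. The rest of these markers are in the lists of further primary granule and progenitor genes or of regulators above. This count therefore adds no gene to those already described. Of 10 mast cell and basophil markers 9 rose and none fell, and their summed level was 5227 FPKM in EtOH and 1383 FPKM in 4OHT. Ctsg is also known from mast cells, and the part of such cells in its level was not tested. Nkg7 and Cst7 are also known from cytotoxic lymphocytes. Of 15 markers of those cells 14 lay under 1 FPKM in both conditions and 5 were listed at 0 in both, and the last was Gzmb. The T cell genes Cd3e and Cd3g, named after their values were seen, were among those at 0. A value of 0 in this table need not mean that a gene was silent, since Vamp7, which most cells express, was listed at 0 as well.

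By level alone, the rows nearest to each gene in log2(FPKM + 1) of EtOH and 4OHT were as follows. Cst7 lay closest to Gnai2, Taldo1 and Cd24a, within 0.0886 log2 units, and Plac8 to Rplp2, Rpl3 and Mt1, within 0.101. Nkg7 lay near Rnf128, Car4 and Cd200r4, between 0.190 and 0.301 units away. Mpo was nearest to Dstn, Mir142 and Alox5ap at 0.634 or more, and Ctsg to rows that included Ptma and Ppia, at 0.648 or more. Prtn3 (Actb, Rpsa and Rpl37a, at 0.559 or more) and Elane (Actb, Prss34 and Rps27a, at 1.19 or more) had no close match either. With 2 conditions this measure describes level and change only.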

How the data were processed

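The deposited table covers 2 samples, EtOH and 4OHT, each from 2 biological replicates. Per the labels' protocols, total RNA was treated with DNase on the purification column, then converted to libraries with an Illumina TruSeq kit. Per the submitters' processing notes, the tools were Bowtie2 2.0.0.7, CASAVA 1.8.2 and Cuffdiff 2.0.2, and the build was mm9. Gene annotation, strand setting and library scaling are not stated. Per the file headers, the authors deposited 1 FPKM per gene and condition, and for EtOH against 4OHT a p-value with its q-value. A Benjamini-Hochberg adjustment of these p-values over the 11865 tested rows gave the same q-values to within 1.7e-06.

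From the FPKM values, log2 changes with a pseudocount of 1, sums, ranks and list medians were computed with Python 3.11.15 and pandas 2.3.3. No test of this work was possible with 1 value per condition. FPKM is a relative measure, so large rises of abundant RNAs can lower other values. Whether they did so here was not tested, and the library scaling is not stated. Start coordinates count from 1. Genes were named by a rule: the 7 genes, up to 4 called genes of at least 5 FPKM with the largest change in each of 10 lists, all of at least 50 FPKM in 3 lists (regulators, activation and folding, inhibitors), adjacent rows, and the 3 nearest rows by level. A few items that the rule names are not reported here. The members and lists were chosen with earlier results of these data known. Of 188 list genes 186 were matched, 2 through an older symbol. Shared words and coding identity came from GENCODE M21 and Biopython 1.88, promoters from RefSeq, where all 7 genes were found. Protein sequences were not used here. Calculations were tested on simulated data.

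FPKM values give no read totals. Among genes with 1 transcript of 1.5 to 6 kb, FPKM times length had a lowest cluster, read in a fixed window of 0.015 to 0.03, with a median of 0.0223 in EtOH and 0.0209 in 4OHT. Taken as 1 fragment, this step would put about 44.9 fragments in EtOH and 47.9 in 4OHT behind each FPKM of a 1 kb transcript. Depth is not known beyond this hint, so counting intervals are not given.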

Additional observations from a re-analysis of the deposited data

How the results depend on the processing

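No paired analysis was possible because each condition has 1 value for both replicates, and for the same reason no replicate could be left out. The counts of 4 genes called higher and 1 lower stayed the same at a q-value of at most 0.01, with an added 2-fold change and under the authors' second call (a ratio of at least 1.5). The log2 changes of Mpo, Elane, Prtn3, Nkg7, Cst7 and Ctsg kept their direction with a pseudocount of 0.1 or 5 and with both rescalings; Plac8 turned to 0.000507 when centred on the median gene, which shows only how near to 0 it lies. Scaling EtOH to the FPKM sum of 4OHT moved the median of all tested rows to -0.15. It gave medians of 0.97 for the 7 genes, -0.41 for activation and folding, 0.78 for inhibitors, 1.79 for further primary granule and progenitor genes, 0.64 for regulators and 1.95 for cytotoxic lymphocyte markers. A pseudocount of 5 gave 0.63 for inhibitors, 1.49 for further primary granule and progenitor genes, 0.60 for regulators and 1.81 for cytotoxic lymphocyte markers, and one of 0.1 gave 2.10 for further primary granule and progenitor genes. With no filter on low values the medians were 0.19 for inhibitors, 1.21 for further primary granule and progenitor genes, 0.60 for regulators and 0.000271 for cytotoxic lymphocyte markers, because low genes entered; the last list otherwise rests on Gzmb alone, at 2.07. The causes of the other shifts were not tested.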

Other observations

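Marker lists of further cell types gave these values. Some of the markers, late neutrophil ones among them, passed the filter of 1 FPKM through their higher condition alone, which fixed their direction. All 10 late neutrophil markers of at least 1 FPKM rose, with a summed level of 16336 FPKM in EtOH and 141 FPKM in 4OHT. Apart from Cxcr2 and Csf3r, these markers were already counted above with the later neutrophil programme. Their rise is therefore mostly the same observation given again. Of 6 eosinophil markers 5 had at least 1 FPKM and all 5 rose, with 4692 FPKM in EtOH and 134 FPKM in 4OHT. Of 6 monocyte and macrophage markers of at least 1 FPKM 3 rose, 2 fell and 1 did not pass, with a median log2 change of 0.38. The list summed to 176 FPKM in EtOH and 264 FPKM in 4OHT, and its lower sum in EtOH rests on Emr1, named after its values were seen, with 102 FPKM in EtOH and 202 FPKM in 4OHT. Of 5 megakaryocyte markers of at least 1 FPKM 1 rose and 1 fell, and of 2 erythroid markers none rose and 1 fell. Of 7 B cell markers 6 lay under 1 FPKM in both conditions, and of 7 markers of plasmacytoid dendritic cells, a cell type that also expresses Plac8, 4 lay under 1 FPKM in both and none was called.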
